A study of Homo sapiens with 4 samples.

Results

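The genes described here are those whose transcript level was higher after TET1 overexpression by a wide margin in both of 2 ovarian cancer cell lines. For each line, the log2 ratio of the TET1 library to the control library was taken on deposited FPKM plus 1, for genes whose FPKM averaged 1 or more over that line's libraries. The median log2 ratio of that line was then subtracted, and the result is called the centred value. Members are the genes with a centred value of at least 1, which is 2-fold above the median gene, in both lines and a control FPKM of at least 0.5 in both. By this rule 69 gene symbols were selected out of 11357 that could have passed and 26506 listed. Since the members were chosen by these same values, the sizes are given as a description and no test was made on them.

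RNA was sequenced from HeyC2 and SKOV3, a pair of established human ovarian cancer cell lines. In each line, 1 culture received 3 μg of the plasmid pCMV6/TET1, labelled TET1 overexpressed, and 1 received the empty plasmid, labelled wild-type. All 4 cultures, controls included, were transfected with lipofectamine and kept in medium with 400 μg/ml Geneticin, to which the plasmid's resistance gene gives survival. With 1 library per group there is no replicate check on any difference. Whether the selected cells were a pool or a clone is not given in the sources used here, and fewer cells of a type and less RNA per cell cannot be told apart in bulk RNA.

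TET1 is a dioxygenase that oxidises 5-methylcytosine in DNA, the first step of active demethylation, and it also acts in chromatin complexes without its catalytic activity. DNA methylation of a CpG-rich start is commonly found at silent genes, and many genes in cancer cells carry it. FPKM corrects the number of sequenced fragments of a gene for transcript length and library size, so that levels of different genes can be set side by side.

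The stretches before the starts of 3 of the leading members show how different their CpG content was, which is why they are printed. They are the 250 bases upstream of the start on the GRCh38.p14 assembly as listed by RefSeq, read 5′ to 3′ on the gene's own strand, with every CG in capitals. IGFBP2, which has 3 starts in that table, is shown for the first and the second of them. The first lies at chr2:216632578-216632827 and the second at chr2:216633170-216633419, both on the plus strand. The MARCKSL1 stretch lies at chr1:32336234-32336483 on the minus strand and that of HTRA1 at chr10:122461303-122461552 on the plus strand.
IGFBP2, first start: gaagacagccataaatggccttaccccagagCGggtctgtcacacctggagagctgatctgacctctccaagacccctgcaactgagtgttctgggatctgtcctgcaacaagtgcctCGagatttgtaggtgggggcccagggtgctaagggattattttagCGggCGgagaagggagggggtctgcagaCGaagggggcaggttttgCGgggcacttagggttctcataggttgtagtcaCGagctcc
IGFBP2, second start: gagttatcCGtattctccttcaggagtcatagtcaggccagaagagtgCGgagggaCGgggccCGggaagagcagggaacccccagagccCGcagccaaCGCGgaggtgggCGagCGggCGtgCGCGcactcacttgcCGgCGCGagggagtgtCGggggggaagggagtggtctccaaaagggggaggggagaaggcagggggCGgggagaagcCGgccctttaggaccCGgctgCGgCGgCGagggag
MARCKSL1: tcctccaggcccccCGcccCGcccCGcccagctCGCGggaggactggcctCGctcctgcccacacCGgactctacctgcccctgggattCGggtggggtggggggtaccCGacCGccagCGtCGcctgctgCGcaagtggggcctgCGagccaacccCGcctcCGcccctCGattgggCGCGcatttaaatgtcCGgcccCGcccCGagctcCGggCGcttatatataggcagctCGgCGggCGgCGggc
HTRA1: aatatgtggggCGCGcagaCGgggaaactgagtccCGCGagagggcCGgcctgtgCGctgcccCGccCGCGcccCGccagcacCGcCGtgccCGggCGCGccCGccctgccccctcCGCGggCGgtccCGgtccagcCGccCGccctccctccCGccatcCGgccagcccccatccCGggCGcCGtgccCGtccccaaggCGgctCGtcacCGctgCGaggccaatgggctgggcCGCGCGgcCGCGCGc

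Only 8 of the 15 leading members have a RefSeq start. The first IGFBP2 stretch held 7 CpG, 0.361 of the number its C and G content would give, and was the least CpG-rich among those 8. The second IGFBP2 stretch held 22 CpG at a ratio of 0.811, so the reading for this gene depends on the start. MARCKSL1 held 28 CpG at a ratio of 0.829, and HTRA1 held the most, 39 CpG at 0.969 with 81.2% GC. The order was another with GENCODE starts on GRCh37 and a window that reached 50 bases past the start. There KRT81 had a ratio of 0.244 and IGFBP2 0.825, while KIFC2 (1.106) and ITGB3 (1.014) lay above HTRA1 (0.960). CH17-340M24.3, a noncoding gene on chromosome X, held 24 CpG at 0.849 in the 250 bases before its RefSeq start. Its stretch runs into the first exon of ATP6AP1 on the other strand and is not printed. The letters GGGCGG of the GC box, searched on both strands, stood in all 5 of these stretches and in 69.1% of the 9190 stretches of eligible genes in the RefSeq table. CCAAT stood in 3 of the 5 and in 35.5% of all, GCGTG in 2 of the 5 and in 47.1% of all, and TATAAA in 0 of the 5 and in 4.60% of all. No match in the 5 was found for the E-box CACGTG, for the AP-1 site written TGACTCA or on the other strand TGAGTCA, for the cyclic AMP response core TGACGT, for the forkhead site GTAAACA or for the TEAD site GGAATG, which stood in 9.03%, 2.39%, 10.8%, 1.90% and 9.26% of all stretches. These are letter matches in a window and not binding sites.

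The libraries set what a value of 1 means. GAPDH was listed at the same FPKM in both columns of a line, 5417.35 in HeyC2 and 2248.44 in SKOV3, because the deposited TET1 column had been multiplied by 3.23 in HeyC2 and by 1.35 in SKOV3. As a result the median gene was higher by 1.61 on the log2 scale in the HeyC2 TET1 column and by 0.59 in the SKOV3 TET1 column, against 0.06 and 0.19 before that scaling. A centred value of 1 therefore equals a 6.10-fold ratio of deposited FPKM plus 1 in HeyC2 and a 3.01-fold ratio in SKOV3. From here on, TET1 levels are FPKM with that factor divided out. Estimated depth ran from 6660000 fragments in the SKOV3 TET1 library to 7440000 in the HeyC2 control. Of the ovarian carcinoma markers, KRT8, KRT18 and PAX8 stood at 74.59 FPKM or more in every library, while WT1 and MUC16 did not pass 0.53 FPKM in any. In SKOV3, KRT7 went from 1537.2 FPKM in the control to 22.0 with TET1, KRT19 from 255.14 to 0.46 and MSLN from 10.29 to 0.082, whereas in HeyC2 KRT7 went from 289.68 to 1125 FPKM and MSLN from 46.55 to 77.5. KRT8 was higher with TET1 in SKOV3 (559.93 to 775 FPKM), as were KRT18 (192.85 to 255) and PAX8 (74.59 to 131). ERBB2 went from 1281.74 to 1464 FPKM there. CDH1 was listed at 0 in both HeyC2 libraries and went from 2.24 to 6.30 FPKM in SKOV3. EPCAM was at 0.09 FPKM in the HeyC2 control and 0.38 with TET1, against 15.39 and 16.1 FPKM in SKOV3. Among 13 fibroblast, leukocyte and endothelial markers, CD3E was at 0 throughout and DCN did not pass 0.08 FPKM, but CDH5 stood at 18.85 FPKM in the HeyC2 control and at 94.6 with TET1, and COL1A1 at 0.32 FPKM in the SKOV3 control and at 27.7 with TET1. The other endothelial markers, PECAM1 and VWF, did not pass 0.42 FPKM in any library. In SKOV3, COL1A2 went from 0.13 to 2.12 FPKM and LUM from 0.51 to 4.32, and in HeyC2 LYZ went from 1.02 to 2.84. Others were lower with TET1, such as PDGFRB in HeyC2 (1.54 to 1.12) and THY1 in SKOV3 (0.82 to 0.48). The part of these markers in the members' values was not tested.

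TET1 itself, on chromosome 10 (GRCh37, 70320094 to 70454244, plus strand), was low in all 4 libraries. Its level was 0.20 FPKM in the HeyC2 control and 0.52 in the HeyC2 TET1 library, from about 14.04 and 33.1 fragments. In SKOV3 it was 0.43 in the control and 1.80 in the TET1 library, from about 29.2 and 113 fragments. TET1 was thus higher in the TET1 library of each line, as labelled. It was no member, since its mean in HeyC2 was under 1 FPKM and its centred value in SKOV3 was 0.67.

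Passing in both lines was rare. In HeyC2, 535 of 12993 genes (4.12%) had a centred value of at least 1, and in SKOV3 1329 of 13339 (9.96%). Among the genes that could become members the shares were 3.46% in HeyC2, 393 genes, and 6.36% in SKOV3, 722 genes. The 69 members were 0.608% of eligible genes, 17.6% of those past the fold in HeyC2 and 9.56% of those past it in SKOV3. In the other direction, 87 genes (0.766%) had a value of at most -1 in both lines. Of the 393 genes past the fold in HeyC2, 57.0% had a value above 0 in SKOV3, with a median of 0.19, and 38 of them (9.67%) were at -1 or below there. Of the 722 past the fold in SKOV3, 59.3% were above 0 in HeyC2, with a median of 0.15, and 42 (5.82%) were at -1 or below.

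**Figure D1:**
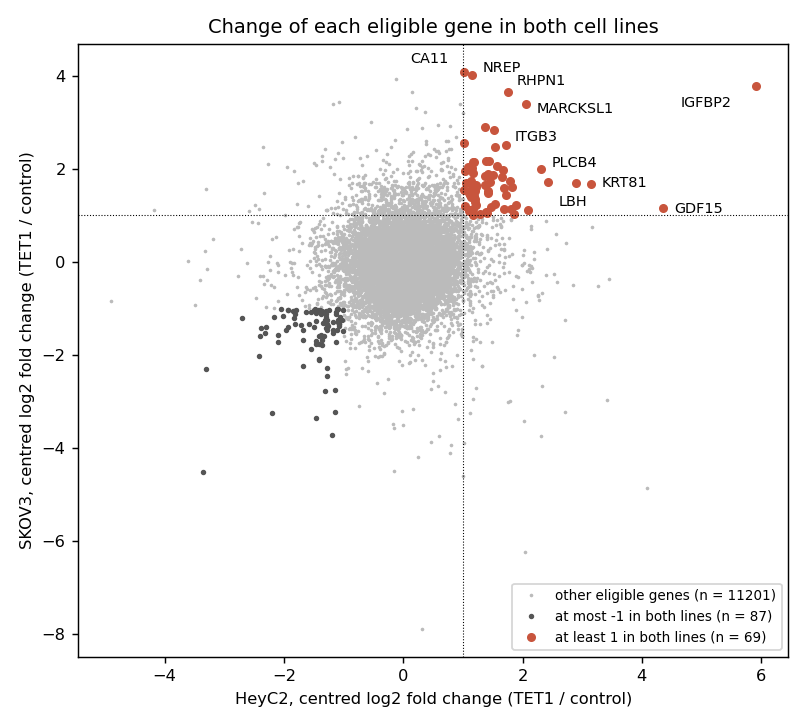
Each point is 1 eligible gene, with the centred log2 fold change in HeyC2 on the horizontal axis and in SKOV3 on the vertical axis, from 1 library per group. The 69 members sit above both dotted lines at 1, with IGFBP2 farthest out on the HeyC2 axis and CA11 on the SKOV3 axis, and the 87 genes at most -1 in both lines are the dark points at the lower left.

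Most members lay close to the edge of the rule. The lower of the 2 centred values had a median of 1.204 and an upper quartile of 1.45. Only 3 members passed 4-fold (a value of 2) in both lines, namely IGFBP2, MARCKSL1 and PLCB4, while 8 reached it in HeyC2 and 18 in SKOV3. The value was the larger one in SKOV3 for 44 members and in HeyC2 for 25, and for 39 members both values lay within 0.5 of each other. On FPKM without the GAPDH factor, all 69 were higher in the TET1 library in both lines, and 67 were at least 2-fold higher without a pseudocount. The rule asks for a rise larger than the GAPDH factor of each line, so the first count follows from it. The second largely follows too, and neither is a separate check of the rises.

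**Figure D2:**
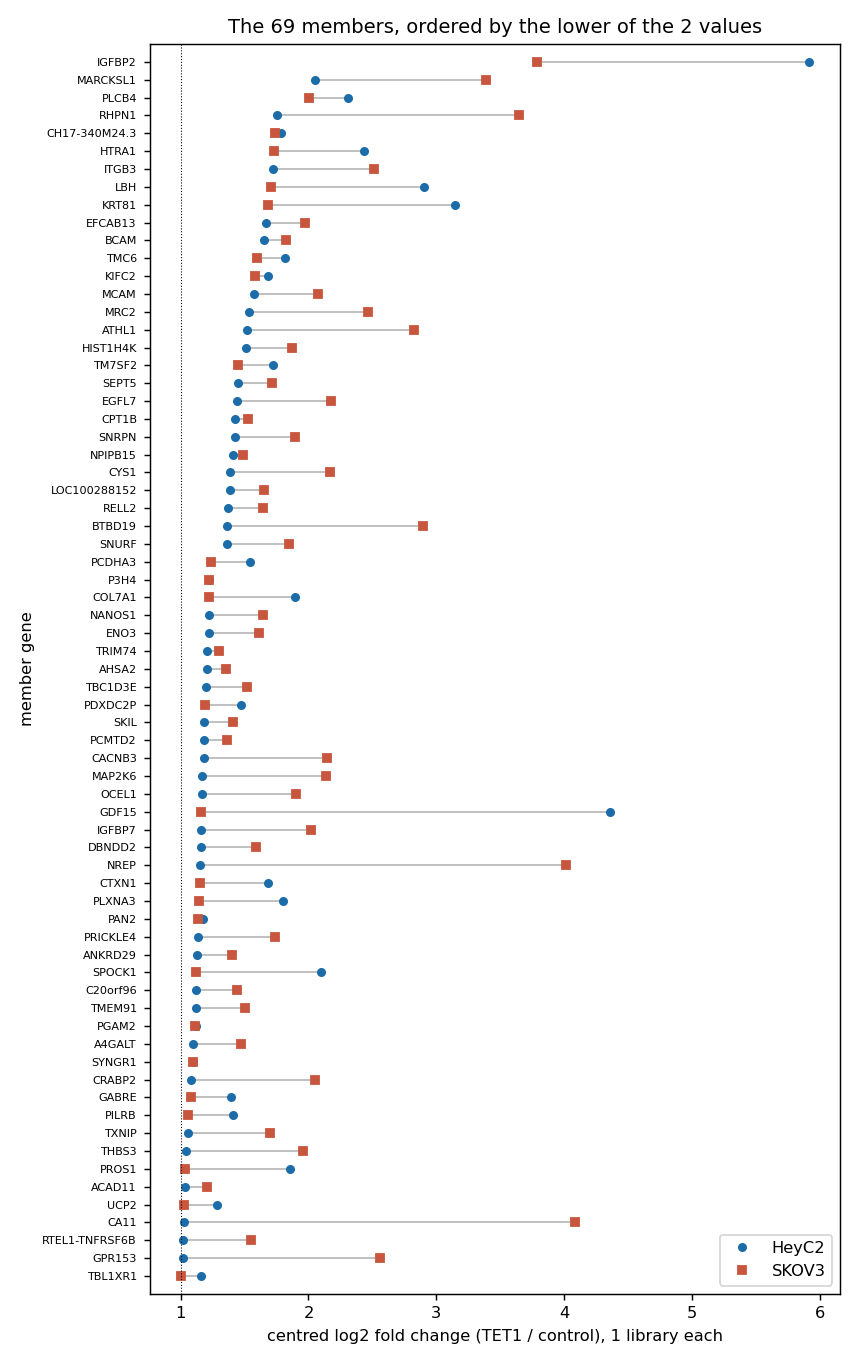
Centred log2 fold change of every member in HeyC2 (circles) and SKOV3 (squares), joined by a line, with members ordered from the top by the lower of their 2 values; 1 library per group, dotted line at 1. The lower value drops from 3.79 for IGFBP2 to 1.002 for TBL1XR1, and long lines mark genes with unequal values such as GDF15, NREP and CA11.

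IGFBP2 had the largest centred value of all members in HeyC2 and the largest lower value, while in SKOV3 CA11 and NREP lay above it. It encodes a secreted protein that binds insulin-like growth factors and limits their access to the receptor, and it lies on chromosome 2 (GRCh37, 217497551 to 217529159, plus strand). Its level was 0.96 FPKM in the HeyC2 control and 111 FPKM in the HeyC2 TET1 library, and 4.14 and 78.5 FPKM in the control and TET1 libraries of SKOV3. These are ratios of 116-fold and 19.0-fold, with centred values of 5.92 and 3.79. The HeyC2 control level came from only about 8.8 fragments. Of the other genes of the family, IGFBP7 was also a member, while IGFBP3 (centred values 2.02 and -0.02) and IGFBP6 (1.11 and 0.04) passed the fold in HeyC2 and not in SKOV3. IGFBP1 had -0.14 and -1.73. IGFBP4 had 1.33 in HeyC2 and was too low for a value in SKOV3, at 0.95 deposited FPKM in the control and 0.39 with TET1. IGFBP5 was too low in HeyC2 and had 2.85 in SKOV3. IGFBP7, whose product is found in the extracellular matrix, was one of the most abundant members at 95.0 and 202 FPKM in HeyC2 and 157 and 715 FPKM in SKOV3, control before TET1. Its centred values were 1.16 and 2.02.

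The 10 members with secreted or matrix products had median centred values of 1.87 in HeyC2 and 1.48 in SKOV3. HTRA1, a secreted serine protease, stood at 4.02 FPKM in the HeyC2 control and 25.3 in the TET1 library, and at 20.2 and 77.6 FPKM in SKOV3. Both TET1 libraries were thus above both controls for HTRA1, with centred values of 2.43 and 1.73. GDF15, a stress-induced cytokine of the TGF-beta superfamily, had the most uneven response among members in favour of HeyC2. It stood at 3.92 FPKM in the HeyC2 control and 95.0 with TET1, but started from 74.5 FPKM in the SKOV3 control and reached 188 FPKM there. Its centred values of 4.36 and 1.16 differed by 3.1998. PROS1, which encodes the anticoagulant protein S, stood at 2.98 and 13.3 FPKM in HeyC2 and 11.4 and 27.5 FPKM in SKOV3 (1.86 and 1.03). EGFL7, a secreted protein best known from blood vessels, stood at 32.8 and 86.5 FPKM in HeyC2 and 19.3 and 102 FPKM in SKOV3 (1.44 and 2.18). COL7A1, the collagen of anchoring fibrils beneath epithelia, had centred values of 1.89 and 1.22, and THBS3, a thrombospondin, 1.04 and 1.96. SPOCK1, a proteoglycan, had 2.10 and 1.12, and P3H4, a partner of collagen-modifying enzymes in the endoplasmic reticulum, had 1.22 in both lines.

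Among the 12 cell surface members, ITGB3 reached the highest level in a single library. It encodes the beta 3 integrin subunit, which pairs with the alpha v chain as a receptor for vitronectin and other matrix proteins. Its level was 99.0 and 311 FPKM in the control and TET1 libraries of HeyC2 and 6.71 and 48.5 FPKM in those of SKOV3. The SKOV3 TET1 library, although 7.23-fold above its control, remained below the HeyC2 control. EFCAB13, an EF-hand gene that lies next to ITGB3 on chromosome 17, was a member too, at 2.34 and 9.71 FPKM in HeyC2 and 0.50 and 5.85 FPKM in SKOV3. The annotated ends of ITGB3 and EFCAB13 are 9546 bases apart on the same strand, with no other eligible gene between them. The centred values of the neighbours were 1.72 and 2.51 for ITGB3 and 1.67 and 1.98 for EFCAB13.

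A pair of immunoglobulin-type adhesion molecules belonged to the surface group as well. BCAM, a laminin receptor, stood at 2.81 and 10.98 FPKM in HeyC2 and at 42.7 and 172 FPKM in SKOV3, with ratios of 3.91 and 4.02. MCAM, also called CD146, stood at 7.32 and 23.1 FPKM in HeyC2 and 2.23 and 14.4 FPKM in SKOV3 (1.57 and 2.07). BCAM was the more abundant in SKOV3 and MCAM in HeyC2, in both kinds of library. MRC2, an endocytic collagen receptor, stood at 12.3 and 35.9 FPKM in HeyC2 and 25.1 and 160 FPKM in SKOV3 (1.53 and 2.46). TMC6, a transmembrane channel-like gene, was low in both controls at 1.19 and 0.86 FPKM and reached 6.98 and 5.56 FPKM. GPR153, an orphan receptor, had the smallest HeyC2 value of all members (1.02) against 2.56 in SKOV3. The other members of the group were PLXNA3, a semaphorin co-receptor (1.80 and 1.15), GABRE, a subunit of the GABA type A receptor (1.39 and 1.08), PCDHA3, a clustered protocadherin (1.54 and 1.24), PILRB (1.41 and 1.06), RELL2 (1.37 and 1.64) and TMEM91 (1.12 and 1.502). PCDHA3 shares exons on the same strand with its cluster, so how fragments were divided among these genes is uncertain. In that cluster PCDHA2 had 0.26 and 0.60, PCDHA4 -0.01 and 1.03, and PCDHAC2 -0.74 and -0.92.

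MARCKSL1 and PLCB4 led the 20 members that signal from the membrane, shape the cytoskeleton or act in the cytoplasm. MARCKSL1, an actin-binding substrate of protein kinase C, stood at 11.04 and 46.8 FPKM in HeyC2 and 3.62 and 53.3 FPKM in SKOV3. The 2 TET1 libraries thus lay closer together than the controls did. PLCB4, a phospholipase C that G proteins activate, stood at 16.5 and 81.6 FPKM in HeyC2 and 13.3 and 63.6 FPKM in SKOV3, with ratios of 4.95 and 4.77. Since the lowest of its libraries held about 527 fragments, PLCB4 was the most deeply counted of the 3 members past 4-fold in both lines. RHPN1 stood at 1.03 and 6.15 FPKM in HeyC2 and 0.91 and 26.0 FPKM in SKOV3 (1.75 and 3.64).

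LBH, a transcriptional regulator first described in limb bud and heart, stood at 1.71 and 18.8 FPKM in HeyC2 and 9.42 and 37.3 FPKM in SKOV3, a ratio of 10.99 in the first and 3.95 in the second. KRT81, a hair keratin, had the same ratio of 10.99 in HeyC2, from 3.03 to 33.3 FPKM, and 6.28 in SKOV3, from 1.05 to 6.599 FPKM. No other gene of the list of junctions, cadherins and keratins was a member. NREP, first described in regenerating neurons, stood at 26.8 and 57.9 FPKM in HeyC2, but at 2.45 and 61.6 FPKM in SKOV3. Its centred values of 1.15 and 4.02 made NREP one of the 3 members with the largest excess in SKOV3, with CA11 and RHPN1. The antisense gene STARD4-AS1, which shares exon positions with NREP, had centred values of 1.002 and 1.80, and since the strand setting of the libraries is not given, reads of the pair cannot be told apart. TXNIP, which binds thioredoxin and restrains glucose uptake, was abundant throughout at 77.6 and 154 FPKM in HeyC2 and 108 and 395 FPKM in SKOV3 (1.06 and 1.70). MAP2K6, the kinase that activates p38, was low in both controls (1.19 and 0.91 FPKM) with centred values of 1.17 and 2.14. SKIL, a repressor of SMAD signalling, had 1.19 and 1.41.

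KIFC2, a kinesin motor, stood at 13.7 and 44.2 FPKM in HeyC2 and 14.5 and 51.1 FPKM in SKOV3, so its levels were close between the lines in controls and TET1 libraries alike. CACNB3, the beta subunit of voltage-gated calcium channels, had centred values of 1.18 and 2.14, and SYNGR1, a synaptic vesicle protein, 1.10 and 1.09. SEPT5, a septin, had 1.45 and 1.72, and CYS1, a ciliary protein, 1.39 and 2.17. The remaining genes of this group were BTBD19 (1.37 and 2.89), CTXN1 (1.68 and 1.15), DBNDD2 (1.16 and 1.59), PRICKLE4 (1.13 and 1.74) and ANKRD29 (1.13 and 1.40). The whole group had median centred values of 1.38 in HeyC2 and 1.73 in SKOV3.

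**Figure D3:**
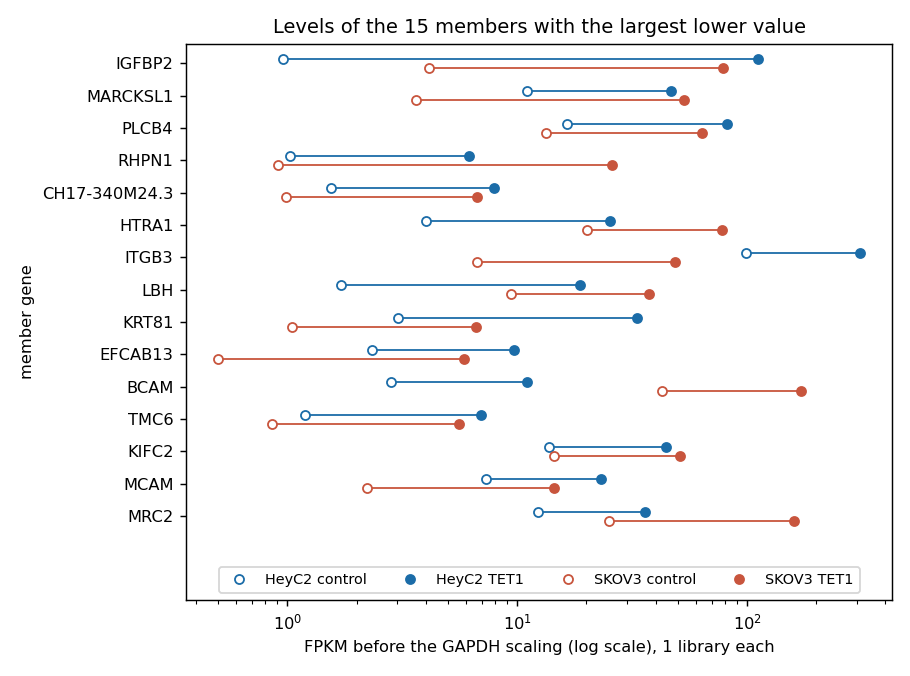
FPKM before the GAPDH scaling, on a log axis, of the 15 members with the largest lower value, in the control (open circles) and TET1 libraries (filled circles) of HeyC2 (blue) and SKOV3 (red), 1 library each. Every filled circle lies to the right of its open circle, and ITGB3 in HeyC2 has the highest level, 311 FPKM.

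The 10 metabolic members had median centred values of 1.17 in HeyC2 and 1.498 in SKOV3. CA11, a carbonic anhydrase relative without catalytic activity, had the largest excess in SKOV3 of all members. It stood at 0.82 and 3.18 FPKM in HeyC2 and at 1.05 and 38.2 FPKM in SKOV3, a ratio of 36.4 in the latter, and its lowest library held about 9.4 fragments. ENO3 and PGAM2, the muscle forms of the glycolytic enzymes enolase and phosphoglycerate mutase, had centred values of 1.22 and 1.62 and of 1.12 and 1.11. Their lowest libraries held only about 9.7 and 4.9 fragments. Each shares exon positions with a more abundant gene on the opposite strand, PFN1 for ENO3 and DBNL for PGAM2, and the strand setting is not given. CPT1B, the muscle form of the enzyme that admits long-chain fatty acids to mitochondria, had 1.43 and 1.52, and ACAD11, an acyl-CoA dehydrogenase, 1.03 and 1.21. UCP2, a carrier of the inner mitochondrial membrane, stood at 6.30 and 16.5 FPKM in HeyC2 and 22.7 and 53.2 FPKM in SKOV3 (1.29 and 1.02). TM7SF2, a sterol reductase, had 1.72 and 1.45, while CRABP2, the carrier of retinoic acid, had 1.08 and 2.05. A4GALT, the enzyme that makes the glycolipid Gb3, had 1.10 and 1.47, and ATHL1, a glycosidase, 1.52 and 2.83.

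Of the 9 members grouped as RNA, chromatin or other intracellular genes, SNRPN and SNURF are a single imprinted locus on chromosome 15 whose transcripts share exons. SNRPN, which encodes a splicing protein, stood at 20.2 and 53.5 FPKM in HeyC2 and 7.41 and 34.2 FPKM in SKOV3. The SNURF symbol had nearly the same values, 22.4 and 56.5 FPKM and 8.23 and 36.3 FPKM, so the pair counts as 1 locus. TBL1XR1, a subunit of the NCoR corepressor, stood at 22.4 and 49.04 FPKM in HeyC2 and 18.7 and 43.4 FPKM in SKOV3, and was the best counted of the members at the edge of the rule, with about 1077 fragments in its lowest library. PAN2, a deadenylase that shortens poly(A) tails, had 1.18 and 1.14, and NANOS1, a translational repressor, 1.22 and 1.64. HIST1H4K, 1 of many near-identical histone H4 genes, had 1.51 and 1.87, from about 1.1 fragments in its lowest library. AHSA2 (1.204 and 1.36), PCMTD2 (1.18 and 1.36) and OCEL1 (1.16 and 1.90) complete the group.

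The last 8 symbols are copies, readthrough transcripts or genes of unknown function. TBC1D3E stood at 10.4 and 24.4 FPKM in HeyC2 and 8.42 and 29.4 FPKM in SKOV3, while its copy TBC1D3B was at 0 in both HeyC2 libraries and TBC1D3C at 0 in all 4. In SKOV3 the copy TBC1D3G had a centred value of 1.55, from 2.22 to 13.2 deposited FPKM, and TBC1D3 was listed at 0 in the control and at 4.1 deposited FPKM with TET1, while both were at 0 in HeyC2. Since these copies share sequence, how the fragments were divided among them is uncertain, and the same holds for NPIPB15 (1.41 and 1.49), TRIM74 (1.21 and 1.297) and PDXDC2P (1.47 and 1.19). RTEL1-TNFRSF6B (1.02 and 1.55) is a readthrough symbol that overlaps RTEL1 (0.74 and -0.74) and TNFRSF6B (0.62 and -0.24), neither of them a member. The other symbols were CH17-340M24.3 (1.78 and 1.74), with about 3.4 fragments in its lowest library, LOC100288152 (1.38 and 1.65) and C20orf96 (1.12 and 1.44).

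At the edge of the rule, the 4 members with the smallest lower value were CA11 (1.02), RTEL1-TNFRSF6B (1.02), GPR153 (1.02) and TBL1XR1 (1.002). Just outside it were IFITM1, an interferon-induced membrane protein, whose lower value of 0.9992 stood beside 3.21 in SKOV3, and C2orf74 (0.996), FBXL8 (0.994) and LOC100130987 (0.990).

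Many members started from different levels in the 2 lines. The control FPKM of HeyC2 and SKOV3 had a Spearman correlation of 0.47 over the 69 members and of 0.77 over all 11357 eligible genes, as a description across genes that share the same libraries. Controls lay within 2-fold of each other for 30 members, were at least 2-fold higher in SKOV3 for 18 and at least 2-fold higher in HeyC2 for 21. These counts are given for the members only, without a share over eligible genes. On log2 of FPKM plus 1 without the GAPDH factor, the gap between lines was smaller in the TET1 libraries than in the controls for 44 of 69 members (63.8%), against 50.5% of eligible genes and 44.8% of the 87 genes lower in both lines. The median gap of the members was 0.94 in the controls and 0.72 in the TET1 libraries. It was 0.651 and 0.649 over eligible genes, and 1.89 and 1.96 over the 87 genes lower in both lines. Control levels entered the rule, so these gaps are not independent of it.

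Against 31 pathway lists, the members were scattered. In all, 15 of 69 members (21.7%) were on at least 1 list, against 774 of 11357 eligible genes (6.82%). The lists were chosen with earlier results of these data known, so these shares are not independent of the values. The list of integrins and cell adhesion molecules held 3 members of its 18 eligible genes, ITGB3, BCAM and MCAM, and its median centred values were 0.09 in HeyC2 and -0.12 in SKOV3, beside 0.01 and -0.06 over all eligible genes. The growth factor list held 2 of 31 (IGFBP2 and IGFBP7), the extracellular matrix list 2 of 31 (COL7A1 and THBS3) and the ion channel list 2 of 26 (CACNB3 and GABRE). Single members stood on 7 other lists. These were TXNIP among 23 FOXO and quiescence genes, GDF15 among 26 p53 targets and among 28 ATF4 targets, PROS1 among 18 complement and coagulation genes, SKIL among 26 TGF-beta and BMP genes, KRT81 among 28 junction and keratin genes, and PLXNA3 among 33 axon guidance genes. No member came from the 36 cell cycle genes, whose medians were -1.29 and -1.12, from the 36 interferon-stimulated genes (-0.34 and 0.45), from the 56 chromatin genes (-0.17 and 0.27) or from the 42 autophagy and lysosome genes (-0.04 and -0.06). By symbol family, 0 of 315 ZNF genes, 0 of 183 solute carriers and 0 of 204 antisense transcripts were members, beside 1 of 23 histone genes and 1 of 10 protocadherins. Members were 0.608% of all eligible genes, so in lists and families of these sizes a count of 0 or 1 is near the background.

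Most members were of low abundance in the controls. Their median control level was 4.74 FPKM in HeyC2 and 4.23 FPKM in SKOV3, against 10.9 and 12.8 FPKM over eligible genes, and 47 of 69 were under 5 FPKM in at least 1 control. Only 10 were at 10 FPKM or more in both controls. Neither count is given over eligible genes, and the control level is part of the ratio that chose the members. The median number of fragments in a member's lowest library was about 50.01, against 175.1 over eligible genes, and 14 of the 68 members with a known transcript length had fewer than 20. Low counts vary more by sampling alone. Of the 919 eligible genes with fewer than 20 fragments in their lowest library 1.52% were members, and of the 5129 genes with 200 or more 0.214% were. The share of genes lower in both lines went from 2.07% to 0.253% over these bins. Their lowest library can be a TET1 library, so the fall itself moves them to a lower bin. Their median control levels were 8.77 FPKM in HeyC2 and 28.57 FPKM in SKOV3. The part of counting error in the members' values was not tested.

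Sequence features of the members are given as a description, with no test. The median GC content of their transcripts was 57.1%, against 48.1% over eligible genes and 48.2% over the 87 genes lower in both lines, while their median length was 2483 bases against 3278 and 2774. Of the 1666 eligible genes with at least 60% GC, 1.62% were members (27 genes) and 0.3001% were lower in both lines (5 genes). Of the 4233 genes between 40% and 50% GC, 0.260% were members (11 genes) and 0.874% were lower in both lines (37 genes). Within a single line the share past the fold moved the same way, from 2.36% under 40% GC to 5.94% at 60% or more in HeyC2, and from 3.13% to 13.0% in SKOV3. When values were corrected for GC content and transcript length, 63 genes passed in both lines, 59 of them members.

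The CpG content of the starts is likewise given without a test. A start was counted as CpG-rich with an observed to expected CpG ratio of at least 0.6 and a GC content of at least 50%, from 250 bases before to 50 after it. Of the members with a RefSeq entry, 31 of 45 (68.9%) were CpG-rich, against 7726 of 9190 eligible genes (84.1%), but this check is void, since only 65.2% of the members have an entry. With the gene starts of GENCODE on GRCh37, a version chosen after seeing the data, 48 of 68 members (70.6%) were CpG-rich, against 9752 of 11132 eligible genes (87.6%). The median ratio was 0.833 for members, 0.870 for eligible genes and 0.922 for the genes lower in both lines. Members with low ratios included DBNDD2 and PGAM2 (both 0.14), ENO3 (0.16), NREP (0.18), NPIPB15 (0.19), PILRB (0.22), KRT81 (0.24) and THBS3 (0.26), all singled out after their values were seen. DNA methylation was not measured in these libraries.

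**Figure D4:**
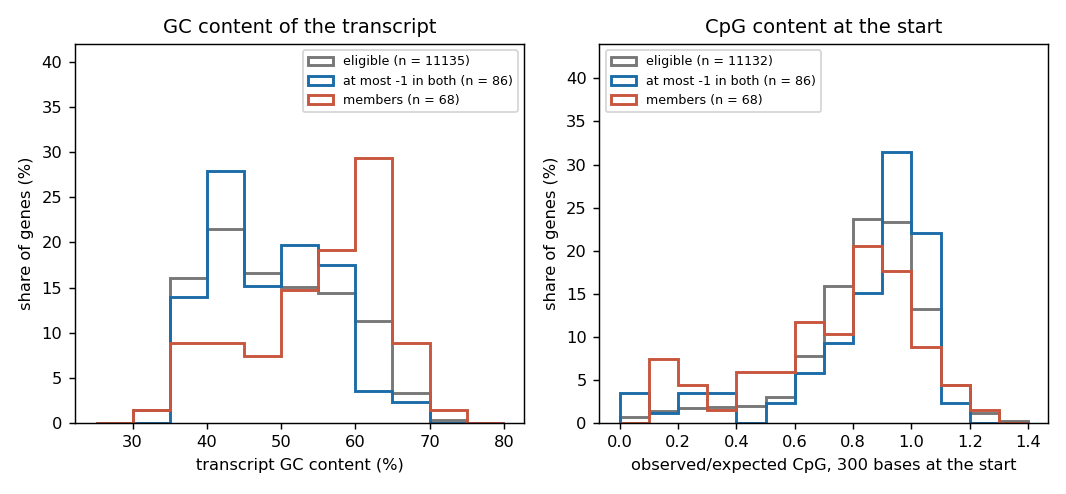
Share of genes (%) by GC content of the transcript (left, %) and by observed to expected CpG ratio from 250 bases before to 50 after the GENCODE start (right), for eligible genes (grey), the genes at most -1 in both lines (blue) and the members (red). The member curve peaks above 60% GC, and on the right it has a larger share of genes at ratios under 0.6 than the eligible genes.

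The 68 members with a known position were spread over 20 chromosomes. Chromosome 17 held the most, 8 of its 673 eligible genes (1.19%), and chromosome 20 had the highest share, 5 of 308 (1.62%). Apart from the adjacent pairs ITGB3 and EFCAB13 and SNRPN and SNURF, the closest members were CH17-340M24.3 and PLXNA3 on the X chromosome, 29748 bases apart with 3 other eligible genes between them. Of the 69, 65 were protein coding (94.2%, against 93.5% of eligible genes). In addition, 14 members share exon positions with another gene on the same strand, 19 with a gene on the opposite strand and 5 are near-identical copies, which leaves 35 with none of these. Overlaps were searched for the members only, so whether these counts differ from those of eligible genes is not known. Some partners were also higher in both lines, as FCHSD1 beside RELL2 (0.62 and 1.204), CHKB-CPT1B beside CPT1B (0.74 and 1.12), and PVRIG2P (0.66 and 1.015) and PILRA (0.80 and 1.197) beside PILRB. For TMC6, KIFC2, MCAM and ENO3 the partners TNRC6C, FOXH1, CBL and PFN1 had centred values between -1.01 and 0.48. None of these 8 partners was a member, and they were singled out after their values were seen.

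How firmly a gene belonged to the set varied. Over 6 other scalings, pseudocounts and corrections, 54 members passed in all and 64 in at least 3. GPR153 passed in none of them, and TXNIP, SYNGR1, ACAD11 and TBL1XR1 in 1. Before the GAPDH scaling 65 genes passed, 63 of them members. Without the 18 symbols that share exons on the same strand or are copies, 51 members remain, and 54 have at least 20 fragments in every library.

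**Figure D5:**
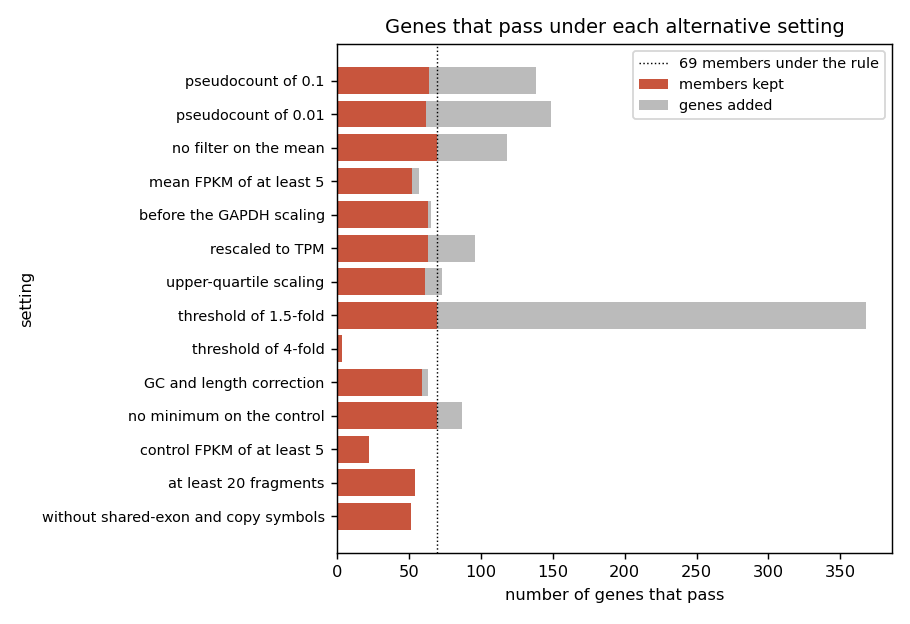
Number of genes that pass under each alternative setting, split into members that still pass (red) and genes added (grey), with a dotted line at the 69 members. Most members pass under other scalings, while a smaller pseudocount or a 1.5-fold threshold adds many genes and a 4-fold threshold leaves 3; the setting without centring, with 2279 genes, is not drawn.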

How the data were processed

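RNA-seq of HeyC2 and SKOV3 cells was used, with 1 library of TET1-overexpressing and 1 of empty-plasmid cells per line. The deposited values are FPKM, made by the authors on hg19 from TruSeq libraries read from both ends. The submitters' processing notes name Bowtie2 2.2.6 and RSEM 1.2.17, and the annotation and strand setting are not given in the sources used here. The value steps show that each deposited TET1 column was multiplied by a constant that sets GAPDH to its control value. The constant was recovered from those steps, and 100% of distinct TET1 values under 40 FPKM were whole steps of it to within 0.005 FPKM. The authors' table gives no read totals, so depth was taken as the fragment total that best turns low FPKM values into whole fragments, with 175 bases taken off the transcript length.

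Centred values used a pseudocount of 1 and a minimum of 1 on a gene's mean FPKM in the line, and understate the change of low genes. Members needed a value of at least 1 in both lines and a control FPKM of at least 0.5. The members, pathway lists and comparisons were chosen with earlier results of these data known. No test was made, since each group has 1 library and the values themselves chose the members.

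Named genes were TET1, the 15 members with the largest lower value, the 5 with the highest lower control level, up to 4 members of each list, the 3 members with the largest difference between lines in each direction, the 4 just inside and 4 just outside the threshold and adjacent members. The other members are named so that all 69 are accounted for, and their grouping by role was made from general knowledge once the members were known. Promoters were to be shown for the first 3 leading members with a RefSeq entry and for the most and least CpG-rich of the 15. Only 8 of the 15 have an entry, so the most and least CpG-rich were taken among those 8. The second IGFBP2 start was added after seeing the data.

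GENCODE on GRCh37, the build of hg19, gave gene positions, GC content and transcript length for 23910 of 26506 symbols (90.2%) and 68 of 69 members. Promoter sequence came from RefSeq on GRCh38.p14. Scripts ran in Python 3.11.15 with numpy 2.4.6 and pandas 2.3.3, and figures were drawn with matplotlib 3.10.9. The steps were tested on simulated data with 4-fold rises planted in genes with control FPKM of at least 5. Smaller rises and lower genes, as most members are, were not covered by that test. Alternatives were other pseudocounts, filters, scalings, thresholds and a correction for GC content and length in 20 bins each. After seeing the data, the GENCODE start and a count without shared-exon and copy symbols were added.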

Additional observations from a re-analysis of the deposited data

How the results depend on the processing

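The count of members moved furthest without centring and at another threshold. Against 69, both lines gave 138 genes with a pseudocount of 0.1, 149 with 0.01, 118 with no filter on the mean, 2279 with no centring, 368 at 1.5-fold, 3 at 4-fold and 22 with a control FPKM of at least 5. Against 535 in HeyC2, there were 1107 and 1221 genes with pseudocounts of 0.1 and 0.01, 11421 with no centring, 1694 at 1.5-fold and 89 at 4-fold. Against 1329 in SKOV3, there were 2066 with a pseudocount of 0.01, 3700 with no centring, 2753 at 1.5-fold and 226 at 4-fold. With a ratio of at least 0.75 and GC of at least 55%, the CpG-rich share of members fell to 44.4% and that of eligible genes to 66.9%. Both shares come from the RefSeq starts, for which the check is void. Without centring, the GAPDH factor itself lifts most HeyC2 genes past the fold. The other counts lay within 1.5 times the main count. Among 38 named genes, 216 of 223 values moved by less than the spread of centred values among the 500 genes nearest in level, 7 moved further and 0 reversed.

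Each group has 1 library, so no replicate was left out. No paired analysis was possible because the results come from no test, the labels number no replicates and the members were chosen by the values that such a fit would use. Depth was estimated rather than given. Levels under about 5 FPKM can rest on few fragments, above all for short transcripts, so ratios of many low members are loose.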
